A study of Drosophila melanogaster with 12 samples.

Results

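The genes described here are 10 genes of the fly's response to the steroid hormone ecdysone. They are the subunits of the ecdysone receptor (EcR and usp), the orphan nuclear receptors Eip75B, Eip78C, Hr46, Hr39 and ftz-f1, the transcription factor gene Eip74EF, and the disc response genes ImpE1 and ImpE2. Probe sets were taken when the gene symbol in the deposited table was one of these names, which gave 15 probe sets for 9 genes. Hr39 has no symbol in that table, and its 4 probe sets were found through their RefSeq accession. In all, 10 of 12363 named genes and 19 of 18769 probe sets belong to the set. Hr46 is called Hr3 in RefSeq.

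Ecdysone acts as 20-hydroxyecdysone, which binds a heterodimer of EcR and Ultraspiracle, the product of usp. The bound receptor switches on early genes such as Eip74EF, Eip75B and br, whose products act on later genes, and the early-late receptors such as Hr46, Hr4 and Eip78C follow in the same cascade. The receptor Ftz-f1 belongs to the next step: its gene is expressed after a hormone pulse has passed, and it prepares tissues to respond to the following pulse. In imaginal discs the late larval pulse starts the change from a folded epithelial sac to an everted appendage, and the ImpE genes were found through their induction by the hormone in discs.

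Transcript levels were measured on 12 Affymetrix Drosophila_2 arrays from L3 larvae, in the last larval instar, raised at one temperature on normal food, in 4 groups of 3. Control wing discs carried the nub-Gal4 driver alone, and the discs of the other disc group, called nub-MiT discs here, carried nub-Gal4 with UAS-MiT. The remaining groups were hindgut and Malpighian tubules, collected as 1 sample, of wild-type larvae and of MiT mutants with the genotype MiTTZ2/Df(4)TZ, an allele over a deficiency. MiT, Mitf in the files, is the fly's only transcription factor of the MITF/TFE family. The driver is active in the wing-forming region of the disc, so a whole disc mixes cells with and without it, and the mutants carry their lesion in every tissue. The labels give the larval stage as L3 with no hour or substage for any group, and nothing in them says whether replicates were separate cultures, so p-values measure the spread between these arrays, which may be technical.

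The series asked which genes rose when MiT was supplied in the wing disc and fell when it was lost in hindgut and tubules. The Mitf probe set read 7.93, 7.91 and 8.15 (log2) in control discs and 8.02, 8.11 and 8.21 in nub-MiT discs, a difference of 0.12 (SE 0.10, limma adjusted p = 0.372). No source used here says whether that probe set reports the transgene, so the overexpression rests on the label. In the mutant hindgut-tubule samples Mitf was 4.51-fold lower (adjusted p = 0.00919). Wing disc and tubule markers went with the tissue labels. In control discs 15 of 15 tested wing disc markers stood higher than in the wild-type hindgut-tubule arrays, and 10 of 10 tubule markers stood lower. Hindgut markers were mixed, with 6 of 8 lower in control discs and 2 higher. Fat body markers, which belong to neither tissue, were lower in control discs for 6 of 7 tested. Of all probe sets tested between these tissues, 47.5% were called higher and 29.6% lower in control discs. Correlations between replicates were 0.9428 to 0.9859 in the hindgut-tubule groups and 0.9824 to 0.9902 in the disc groups. Replicate SDs, averaged over probe sets, were 0.3365 (wild type) and 0.3682 (mutant) for hindgut-tubule arrays, against 0.1825 for control and 0.1522 for nub-MiT discs.

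Levels below are log2 values, and a difference of 1 is a 2-fold change. A probe set was tested when it reached a log2 level of 4 on at least 3 of the 6 arrays compared, and it is called changed when its limma p-value, adjusted by Benjamini-Hochberg over all probe sets tested, was under 0.05. For a group whose mean lay under 4, the level of 4 takes the place of the mean, and the fold is then a lower bound. Levels of different genes are not set against each other, because probe sets differ in how brightly they bind. In whole tissues, fewer cells that express a gene and less RNA per cell cannot be told apart.

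**Figure D1:**
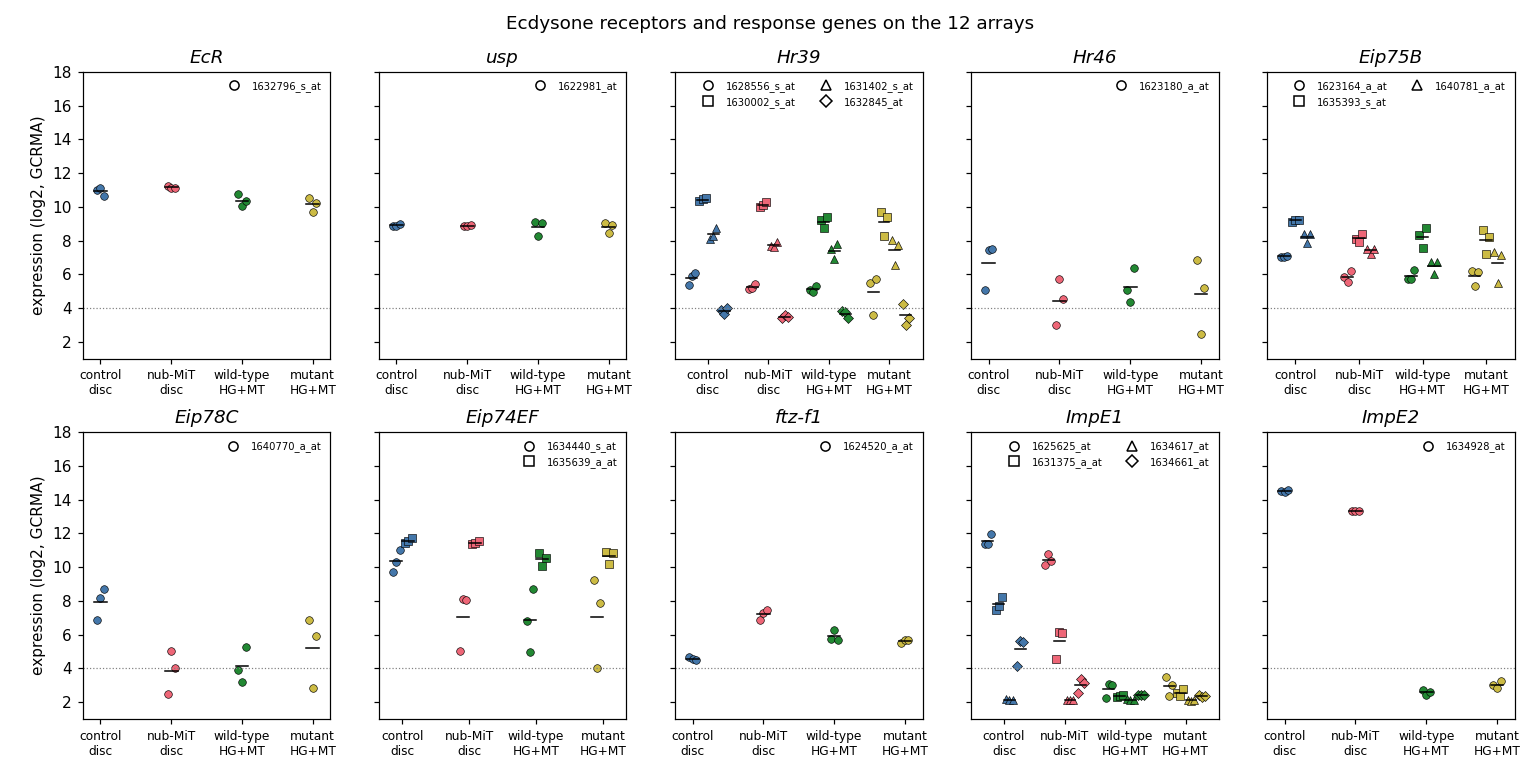
The log2 level of every probe set of the 10 genes on each of the 12 arrays (vertical axis, GCRMA values), with 1 panel a gene, a symbol for each probe set and a bar for the group mean. The groups are control discs, nub-MiT discs and wild-type and mutant hindgut with Malpighian tubules (HG+MT), and the dotted line marks the log2 level of 4. ImpE2 falls from about 14.5 to about 13.3 between the disc groups and stays under the line in both hindgut-tubule groups, whereas ftz-f1 is lowest in control discs.

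In the discs, ftz-f1 rose while Eip75B, Eip78C, ImpE1 and ImpE2 fell, and EcR, usp, Hr46, Hr39 and the brightest Eip74EF probe set did not pass the test. Counted once per gene by its brightest tested probe set, 1 of 10 genes was higher in nub-MiT discs and 4 of 10 were lower. Among all 7888 probe sets tested, 15.0% were called higher and 17.5% lower. The median difference of the 10 genes was -0.69, against -0.04 over all probe sets tested. Counted by probe set, 10 of 17 tested were lower and 1 was higher. Groups did not overlap for 11 probe sets that were lower and 2 that were higher, which among all probe sets holds for 28.7% and 22.0%.

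EcR encodes the hormone-binding subunit of the receptor. It read 11.02, 11.09 and 10.65 in control discs and 11.26, 11.11 and 11.09 in nub-MiT discs. The groups met at 11.09 without overlapping, and the difference of 0.24 (SE 0.13) did not pass the test (limma adjusted p = 0.208). For usp, the gene of the partner receptor, the values were 8.88, 8.87 and 8.97 in control discs and 8.87, 8.85 and 8.95 in nub-MiT discs. These differed by -0.02 (SE 0.07, adjusted p = 0.858), and the groups overlapped over nearly their whole range.

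Eip75B, an early gene that encodes a haem-binding nuclear receptor, fell by all 3 of its probe sets. The brightest read 9.13, 9.23 and 9.24 in control discs and 8.12, 7.90 and 8.41 in nub-MiT discs, a 2.08-fold fall (log2 difference -1.06, SE 0.14, adjusted p = 0.00325). The other probe sets differed by -1.22 (SE 0.16, adjusted p = 0.00355) and -0.79 (SE 0.18, adjusted p = 0.0197). Every control array lay above every nub-MiT array in all 3. The call of the brightest ended when all 12 arrays shared 1 variance (limma adjusted p = 0.0834) and in the authors' deposited table (0.289). The probe set at -0.79 lost its call in 3 of the 6 fits without 1 array (limma adjusted p up to 0.0651).

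Eip74EF encodes an ETS-domain transcription factor, and its 2 probe sets gave different answers. Probe set 1634440_s_at read 9.69, 10.30 and 11.03 in control discs and 5.02, 8.09 and 8.04 in nub-MiT discs. Its groups did not overlap, and it fell 9.77-fold (log2 difference -3.29, SE 0.87, adjusted p = 0.032). Without control disc 1, 2 or 3 the difference was -3.61, -3.31 and -2.94, and the call was lost each time (adjusted p of 0.0542, 0.0782 and 0.0886). In all it was lost in 7 of 15 alternative settings. These include the 12-array fit (limma adjusted p = 0.15) and the authors' deposited table (adjusted p = 0.465). Without nub-MiT disc 1 the call was kept (0.0166) at a smaller difference of -2.27. The brighter probe set, 1635639_a_at, read 11.43, 11.54 and 11.74 against 11.39, 11.41 and 11.57, a difference of -0.11 (SE 0.10, adjusted p = 0.435). Eip74EF is known to make transcripts from alternative promoters that answer to different hormone concentrations, and the sources used here do not say which transcripts each probe set reads.

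Among the early-late receptors, Eip78C moved most. It read 6.87, 8.15 and 8.72 in control discs and 2.49, 5.05 and 4.01 in nub-MiT discs, where its mean of 3.85 lay under the level of 4. Every control array was above every nub-MiT array, and the fall was at least 15.1-fold (log2 difference -4.06, SE 0.74, limma adjusted p = 0.00985). The call held without any single array (adjusted p up to 0.0332), but the size rested in part on nub-MiT disc 1: without it the difference was -3.38 and the remaining group mean lay above the level of 4. The adjusted p in the authors' deposited table was 0.127.

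Hr46, the receptor that activates ftz-f1 in prepupae, read 5.07, 7.44 and 7.48 in control discs and 3.00, 5.71 and 4.57 in nub-MiT discs. Here the groups overlapped, because control disc 1 lay below nub-MiT disc 2, and the difference of -2.24 (SE 0.90) did not pass the test (adjusted p = 0.103). Both disc arrays numbered 1 were the lowest of their groups. With the array number as a block the adjusted p was 0.0102, although the numbers do not pair the disc arrays by the labels or by the correlation of their deviations.

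Hr39 encodes a receptor related to Ftz-f1 that binds similar DNA sites. Its brightest probe set read 10.32, 10.45 and 10.54 in control discs and 9.98, 10.11 and 10.28 in nub-MiT discs. These groups did not overlap, and the difference of -0.31 (SE 0.10) missed the threshold (adjusted p = 0.0616). Of its other probe sets, 1631402_s_at fell (-0.63, SE 0.18, adjusted p = 0.0424) and 1628556_s_at did not pass (-0.54, adjusted p = 0.0812), while 1632845_at was too dim to test. The call of 1631402_s_at was lost in 4 of the 6 fits without 1 array, with adjusted p up to 0.124.

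For ftz-f1 the direction was opposite. Its levels were 4.69, 4.58 and 4.48 in control discs, close to the filter level of 4, and 6.86, 7.30 and 7.44 in nub-MiT discs. All nub-MiT arrays lay more than 2 log2 units above all control arrays. The rise was 6.13-fold (log2 difference 2.62, SE 0.16, limma adjusted p = 0.000237), and under the 15 alternative settings it ran from 2.49 to 2.84 with adjusted p of at most 0.00374.

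ImpE2 encodes a secreted protein of the apical side of disc epithelium, and ImpE1 a protein with lipoprotein-receptor repeats. ImpE2 read 14.50, 14.43 and 14.60 in control discs and 13.34, 13.33 and 13.32 in nub-MiT discs. Arrays within each group were nearly equal, and the 2.27-fold fall (log2 difference -1.18, SE 0.07, adjusted p = 0.000233) ran from -1.22 to -1.13 under all 15 alternative settings, with adjusted p of at most 0.00883. The brightest ImpE1 probe set read 11.35, 11.39 and 11.95 against 10.12, 10.76 and 10.34, a difference of -1.16 (SE 0.22, adjusted p = 0.0117). That call was lost without the filter on dim probe sets (0.0511), in the authors' deposited table (0.162) and without the arrays numbered 1 (0.0543). Its other tested probe sets differed by -2.21 (SE 0.47, adjusted p = 0.0157) and -2.10 (SE 0.44, adjusted p = 0.0151), the latter a fall of at least 2.18-fold. The fourth ImpE1 probe set, 1634617_at, lay near the bottom of the scale on every array and was not tested.

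**Figure D2:**
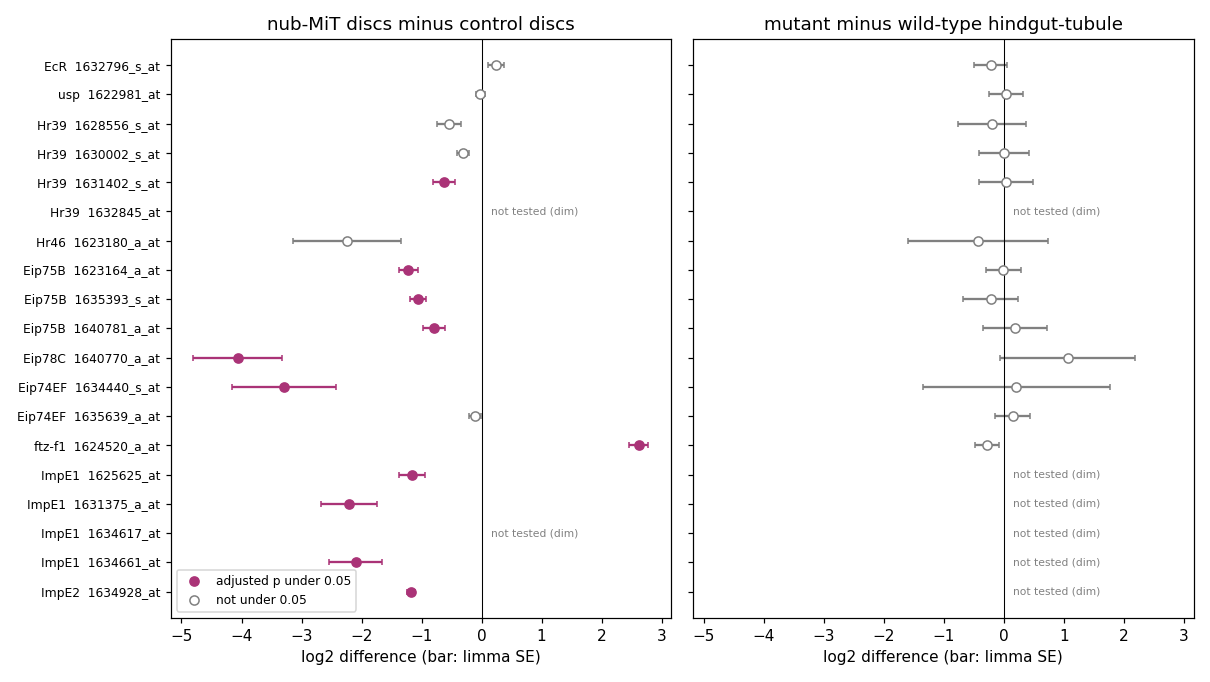
The log2 difference of each probe set of the 10 genes (horizontal axis) between nub-MiT and control discs on the left and between mutant and wild-type hindgut-tubule samples on the right. Bars are limma standard errors, filled points have an adjusted p under 0.05 and probe sets too dim to test are marked. In the discs ftz-f1 lies at 2.62 and 10 filled points lie below 0, and in the hindgut-tubule samples no point is filled.

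Genes of the same pathway outside the set were more often called lower than higher in the discs. The list holds 45 genes, among them nuclear receptors, receptor cofactors and further ecdysone-inducible genes such as the Edg and Eig71E genes. Of these, 26 were bright enough to test in the discs; 7 were lower, 1 was higher and 18 did not pass, beside the 17.5% lower and 15.0% higher of all probe sets tested. Their median difference was -0.24, against -0.04 over all probe sets tested. Among the called genes, Hr4, Blimp-1, ImpE3 and Sox14 fell most. The list's lowest value was that of Eig71Ee, a gene of the salivary gland, at -3.37 with an SE of 2.81 and overlapping groups, and was not called (adjusted p = 0.389).

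Hr4, an early-late receptor, read 7.05, 7.99 and 8.41 in control discs and 3.50, 5.47 and 5.24 in nub-MiT discs (log2 difference -3.08, SE 0.60, adjusted p = 0.0119). Blimp-1, which represses ftz-f1 in prepupae, read 4.57, 4.97 and 5.54 against 2.93, 3.11 and 3.16. All nub-MiT arrays were under the level of 4 for it, and it fell at least 2.03-fold (adjusted p = 0.00273). ImpE3, another gene found by its induction in discs, differed by -1.65 (SE 0.25, adjusted p = 0.00565). Sox14, an ecdysone-induced transcription factor, differed by -1.19 (SE 0.29, adjusted p = 0.0239) but lost its call in 5 of the 6 fits without 1 array. Smaller falls were those of Eip63F-1 (-0.74, adjusted p = 0.00535), Eip63E (-0.40, adjusted p = 0.0301) and the receptor gene Hr78 (-0.28, adjusted p = 0.0193). The last pair lost their calls in 4 and 3 of those 6 fits.

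The gene that rose was Ldh, formerly ImpL3, the lactate dehydrogenase of glycolysis. It read 9.02, 9.82 and 9.66 in control discs and 10.78, 10.96 and 11.06 in nub-MiT discs (log2 difference 1.43, SE 0.21, limma adjusted p = 0.0053). The early gene br, which encodes the Broad zinc-finger factors, has 5 probe sets. Its brightest did not pass (-0.39, adjusted p = 0.0658), nor did 1626996_s_at (-0.40, adjusted p = 0.0866), while 3 others were lower. For 2 of these the differences were -1.21 (adjusted p = 0.00102) and -1.16 (adjusted p = 0.00914). The last, 1636931_at, lay under the level of 4 on every nub-MiT array, a fall of at least 1.45-fold (adjusted p = 0.0339), and lost its call in 5 of the 6 fits without 1 array (adjusted p up to 0.101). The coactivator gene tai differed by -0.52 (adjusted p = 0.0515), and Oatp74D, the ecdysone importer, by 0.09 with no call.

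**Figure D3:**
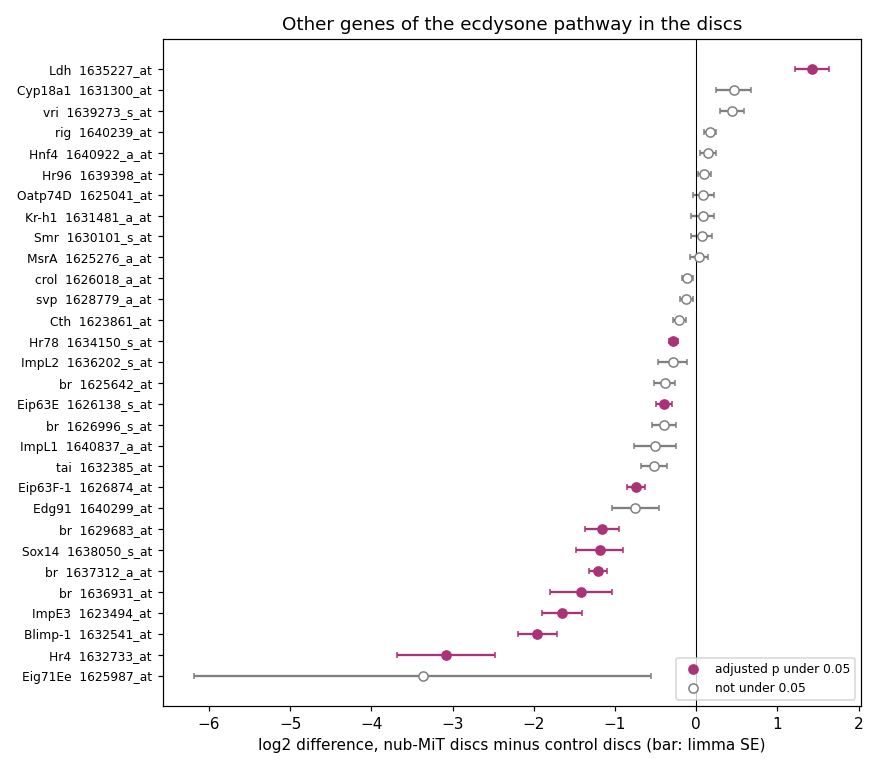
The log2 difference between nub-MiT and control discs for each of the 30 tested probe sets of the other ecdysone pathway genes, ordered by value, with limma standard errors as bars. Filled points have an adjusted p under 0.05. Ldh lies highest at 1.43, and the filled points below 0 run from Hr78 at -0.28 to Hr4 at -3.08.

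Genes of hormone synthesis and turnover, which are enzyme genes and the transporter gene E23, were tested where they passed the filter at a log2 level of 4. In the discs 3 of 5 (E23, shd and spok) were lower and none of the 5 was higher. Among all probe sets tested, 17.5% were called lower and 15.0% higher. E23, a transporter gene induced by ecdysone, differed by -1.51 (SE 0.33, adjusted p = 0.0172), and shd, the enzyme that turns ecdysone into its active form in peripheral tissues, by -2.20 (SE 0.40, adjusted p = 0.00978). Cyp18a1, which inactivates the hormone, differed by 0.46 (adjusted p = 0.138). The ring gland enzyme spok read 9.25, 6.98 and 8.70 in control discs and 4.07, 5.56 and 2.68 in nub-MiT discs (adjusted p = 0.0142).

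Some markers of other tissues also differed between the disc groups, in both directions. The ring gland is the source of ecdysone and is no part of the disc. A summed level here is the log2 of the added linear signals of a list, so the brightest markers weigh most in it. For the 8 ring gland markers on the array it was 8.44 to 9.61 in control discs and 7.15 to 7.40 in nub-MiT discs. These 8 include spok, already given above, so the sum is no separate evidence from it. Of the 8, 5 (nvd and dib among them) lay under the level of 4 on all control arrays. Of the 2 tested markers spok was lower, and sro read 6.89 on average in control and 6.64 in nub-MiT discs (-0.25, SE 0.27, adjusted p = 0.515). Among the untested ones sad read 5.68, 3.75 and 6.37 in control discs and 2.29, 2.99 and 2.50 in nub-MiT discs. Hemocyte markers went the other way: 5 of 9 tested were higher in nub-MiT discs, led by Hml (2.64) and He (2.29), and their summed level was 12.51 to 12.72 in control and 12.94 to 13.29 in nub-MiT discs. So were 6 of 12 muscle markers, led by Mlc2 (1.50) and Mhc (1.08), with summed levels of 16.26 to 16.69 and 16.72 to 17.00. Among all probe sets tested in the discs, 15.0% were called higher and 17.5% lower.

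Fat body and salivary gland markers varied widely between arrays of 1 group. Fat body markers summed to 13.79, 12.43 and 14.64 in control discs and to 14.02, 10.19 and 7.10 in nub-MiT discs, and 0 of 7 were called by limma, 1 of them with an unadjusted p under 0.05. Glue gene markers of the salivary gland summed to 10.38, 7.20 and 16.80 in control discs and 9.57, 14.59 and 11.36 in nub-MiT discs, with 0 of 8 called, 0 of 8 at an unadjusted p under 0.05. Of the wing disc's own 15 tested markers, 9 were lower in nub-MiT discs and 1 was higher. The shares of all probe sets tested were 17.5% lower and 15.0% higher. The part of these other tissues in the differences of the ecdysone genes was not tested.

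In the hindgut-tubule samples none of the genes was called. Of the 10 genes, 8 were bright enough to test, and 0 were higher and 0 lower in the mutant by limma, against 2.42% and 2.14% of all 7887 probe sets tested. None of their 13 tested probe sets had an unadjusted p under 0.05, the smallest being 0.211, and the 12-array fit, the blocked fit and the authors' deposited table called 0 as well. The 8 differences ran from -0.43 to 1.06 with a median of -0.11.

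EcR read 10.74, 10.03 and 10.35 in wild-type and 10.51, 9.70 and 10.25 in mutant samples (-0.22, SE 0.28), and usp read 9.08, 8.29 and 9.02 against 9.06, 8.46 and 8.95 (0.03, SE 0.28). Both receptor genes overlapped between genotypes. ftz-f1 read 5.73, 6.28 and 5.69 in wild-type and 5.53, 5.68 and 5.66 in mutant samples. It was the only probe set of the 13 whose groups did not overlap, with the nearest arrays at 5.69 and 5.68. Its difference was -0.28 (SE 0.20, limma adjusted p = 0.519), and 13.1% of all probe sets lay wholly lower in the mutant.

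The early and early-late genes spread far more than they differed. Eip74EF (1634440_s_at) read 6.83, 4.96 and 8.73 in wild-type and 9.23, 4.05 and 7.86 in mutant samples, so that the difference of 0.21 had an SE of 1.55. Eip78C read 3.93, 3.21 and 5.26 against 6.86, 2.82 and 5.92 (1.06, SE 1.12), and Hr46 5.05, 4.35 and 6.40 against 6.84, 2.47 and 5.21 (-0.43, SE 1.16). On each of these 3 probe sets the arrays numbered 2 were the lowest of both genotypes. Fat body markers summed to 16.03, 17.21 and 16.53 in wild-type and to 15.25, 17.08 and 16.97 in mutant samples. The part of fat body RNA in this spread was not tested. The differences of Eip75B by its brightest probe set (-0.22, SE 0.46), Hr39 (0.00, SE 0.41) and the brighter Eip74EF probe set (0.15, SE 0.29) were smaller than their SE. For Eip78C, Eip74EF and Hr46 the SE of 1.12 to 1.55 compares with 0.74 to 0.90 in the discs. Whether the effects in discs and in hindgut-tubule samples differ was not tested.

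ImpE1 and ImpE2 were not tested in the hindgut-tubule samples because they lay under the filter level of 4. The highest ImpE2 value on those 6 arrays was 3.24 and the highest ImpE1 value by its brightest probe set 3.51. Of the other pathway genes 24 were tested, 0 were called in either direction by limma, and 3 had an unadjusted p under 0.05. No label pairs the hindgut-tubule arrays by number. With the number as a block Edg91, a cuticle gene, was called lower (-1.54, limma adjusted p = 0.043). When the arrays numbered 2 of both genotypes were left out, which was chosen after seeing the data, ImpL1 (2.58, adjusted p = 0.00578), Ldh (1.31, adjusted p = 0.0439) and ImpL2 (0.78, adjusted p = 0.0483) were called higher in the mutant.

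The 4 groups could be ordered for each gene. Control discs stood highest for Eip75B, Eip78C, Hr46, Hr39, ImpE1 and ImpE2 and for both Eip74EF probe sets, and they stood lowest for ftz-f1. Against wild-type hindgut-tubule samples, 6 of the 10 genes were higher in control discs and 1 was lower, where 47.5% of all 8410 probe sets tested were higher and 29.6% lower. The median difference was 1.20 for the 10 genes and 0.37 for all probe sets tested. Centring every array on its median moved all these differences by -0.18 and left the same number of calls.

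ImpE2 was at least 1460-fold higher in control discs (adjusted p = 1.86e-08) and ImpE1 at least 189-fold (adjusted p = 7.19e-07). Eip78C was higher by 3.78 (SE 0.65, adjusted p = 0.0018) and by 3.60 after centring. Hr39 was higher by 1.31 (adjusted p = 0.000796), Eip74EF by 1.09 (adjusted p = 0.00343) and Eip75B by 0.97 (adjusted p = 0.0192), or by 1.12, 0.90 and 0.79 after centring. The Eip75B call was lost without control disc 2 (adjusted p = 0.0563) or control disc 3 (0.0584). ftz-f1 was lower in control discs by 1.32 (adjusted p = 0.000696); that log2 difference was -1.32 before and -1.50 after centring.

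EcR differed between the tissues by 0.55 (SE 0.22, limma adjusted p = 0.0564), Hr46 by 1.39 (SE 0.80, adjusted p = 0.154) and usp by 0.11 (SE 0.22, adjusted p = 0.673). For usp the sign turned with centring, to -0.07. For ftz-f1 the order from low to high was control discs, mutant hindgut-tubule, wild-type hindgut-tubule and nub-MiT discs, with no overlap between neighbours. The middle pair is the hindgut-tubule comparison, which did not pass the test. For Eip78C the nub-MiT discs and both hindgut-tubule groups overlapped with each other. The lowest control disc array, at 6.87, lay just above the highest mutant array, at 6.86. The tissues differ in cell types throughout, so these are levels of whole organs.

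Replicates of 1 group varied together in Eip78C, Eip74EF (1634440_s_at), Hr46 and Hr4. All 4 were lowest on control disc 1, nub-MiT disc 1, wild-type hindgut-tubule 2 and mutant hindgut-tubule 2 within their groups. In the mutant hindgut-tubule group Eip74EF spanned 4.05 to 9.23 and Hr4 2.59 to 7.11 over 3 arrays. EcR and usp moved much less, with at most 0.81 between arrays of a group.

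**Figure D4:**
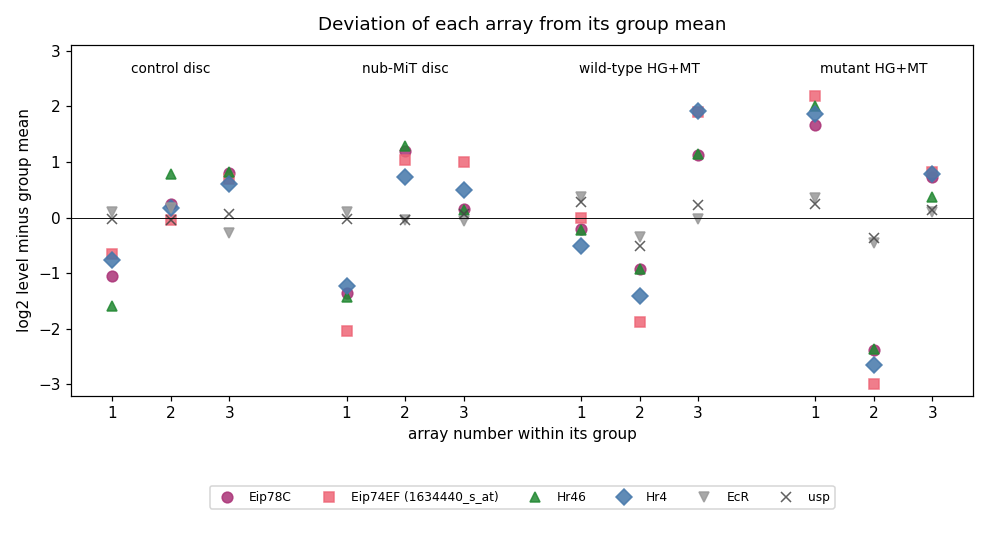
The log2 level of 6 probe sets on each array minus the mean of its group (vertical axis), by array number within the 4 groups. Eip78C, Eip74EF, Hr46 and Hr4 lie together below 0 on control disc 1, nub-MiT disc 1 and both hindgut-tubule arrays numbered 2, down to about -3, while EcR and usp stay within about 0.5 of 0.

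These arrays were also compared over the other member probe sets, leaving out Eip78C, Eip74EF (1634440_s_at) and Hr46. Several of these probe sets read the same gene, such as those of Eip75B and Hr39, so the counts are not counts of genes. Mutant hindgut-tubule array 2 was the lowest for 10 of 11 and wild-type array 2 for 9 of 10, where 53.5% and 50.0% of all probe sets had their lowest value on those arrays. Control disc 1 was lowest for 8 of 14, against 32.5% of all. On nub-MiT disc 1 the count was 6 of 13, near the 43.4% of all probe sets. With the arrays numbered 1 left out of both disc groups, chosen after seeing the data, 4 genes were lower and 1 higher, as with all arrays, but Hr46 gained a call (adjusted p = 0.0324) and the brightest ImpE1 probe set lost its own (0.0543).

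Over the 12 arrays, Eip78C and Eip74EF deviated most from the control mean of their tissue, by a root mean square of 2.40 and 2.26. The genes whose deviations were most like those of Eip78C, among 6637 candidates, were Spn100A (root mean square difference 0.62), Hr4 (0.75) and yellow-c (0.77). For Eip74EF (1634440_s_at) they were Hr4 (0.39), Eip78C (0.80) and yellow-c (0.88). Spn100A, a serpin gene, read 8.82, 10.35 and 10.69 in control discs, 6.06, 7.89 and 6.78 in nub-MiT discs, 6.02, 5.25 and 6.60 in wild-type and 8.38, 5.39 and 7.56 in mutant hindgut-tubule samples. These points share arrays and normalisation.

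Whether the groups were collected at different developmental times was not tested, since no label gives an hour. In nub-MiT discs the early and early-late genes Eip75B, Eip78C and Hr4, the repressor Blimp-1 and the disc response genes ImpE1, ImpE2 and ImpE3 were lower and ftz-f1 was higher, while EcR, usp, Hr46, Hr39 and br and Eip74EF by their brightest probe sets were not called. Of the called genes just named, ftz-f1, ImpE2 and Blimp-1 kept their calls in every alternative setting where they were tested. So did Eip63F-1, a smaller fall of the pathway list (-0.74), in all 15. Of 15 settings, Hr4 and the brightest ImpE1 probe set lost their calls in 3. ImpE3 and the brightest Eip75B probe set lost theirs in 2, and Eip78C in 1. In the mutant hindgut-tubule samples no member was called in either direction.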

How the data were processed

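The authors deposited log2 expression values, 1 per probe set and array, made with GCRMA (background correction and normalisation; version not given in the sources used here), per the submitters' processing notes. Their deposited analysis-of-variance table holds p-values and signed folds, per the file headers, and its adjusted p-values served as 1 alternative. Its 12 per-sample columns were not used. Of 18952 probe sets, 183 controls were left out. Names came from the files' RefSeq accessions and symbols, looked up by name only in RefSeq's table for assembly Release 6: 14007 probe sets had 1 gene, 777 several and 3985 none.

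Each comparison was fitted with limma 3.58.1 in R 4.3.3 (lmFit, eBayes) on its own 6 arrays, since replicate spread differed between tissues, with no covariate. A gene was counted by its tested probe set of highest mean. The fit was also run on simulated data with independent noise on each array. That noise lacks the deviations that genes of these arrays share, and no result here rests on it. Alternatives were a 12-array fit, other filters, trend and robust options, a replicate block, recentring, leaving out each array, and all probe sets counted.

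Deviations of same-numbered arrays from their group means correlated at 0.3228, 0.4153 and 0.1487 in the hindgut-tubule groups. Wild-type array 1 and mutant array 3 correlated at 0.3604, so the numbers do not clearly pair these arrays, and no label pairs them. In the discs the same-number values were 0.3571, -0.0662 and -0.1822. With 3 arrays a group, the number of arrays and the replicate spread limit the precision. The members, gene lists and tests were chosen with earlier results of these data known. Genes named are all members, up to 8 called pathway genes per comparison with the largest differences, the 2 leading markers of a list, Mitf and the 3 genes most like each of the 2 members that deviated most; tai, Oatp74D, Eig71Ee, sro, Cyp18a1, sad, br probe sets and calls from alternatives were added after their values were seen. Sequences were not used here.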

Additional observations from a re-analysis of the deposited data

How the results depend on the processing

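The calls of ftz-f1 and ImpE2 in the discs held in all 15 alternative settings. The 4 genes called lower in the discs became 1 by the authors' deposited analysis of variance and 10 when every probe set was counted; between tissues, the 6 higher in control discs became 13 that way, and the 1 lower became 0 at a filter of log2 6, which left ftz-f1 out. Of the other pathway genes in the discs, the 1 higher became 0 in the 12-array fit and in the authors' deposited table, 2 with trend and robust options, with the replicate block and without the arrays numbered 1 (chosen after seeing the data), and 1 to 2 leaving out 1 array, with 2 without control disc 1. The 7 lower became 2 in the 12-array fit, 2 in the authors' deposited table, 4 without the filter, and 4 to 7 leaving out 1 array, with 4 without nub-MiT disc 1 or 2. In the hindgut-tubule samples the 0 higher became 3 without the arrays numbered 2 (chosen after seeing the data). The 0 lower became 3 when 12 arrays were fitted, 1 with the replicate block and 1 in the authors' deposited table. The gene called in that table was Edg84A, which differed by -0.05. Its group means were 2.37 (wild type) and 2.32 (mutant), under the filter level of 4, so the reported fit did not test it. The cause of these changes was not tested.

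No called difference of a member changed sign. The sign of 13 uncalled differences turned, with adjusted p of at least 0.187. Leaving out 1 array, the hindgut-tubule differences ran from -0.39 to 0.01 for EcR, -0.23 to 0.21 for usp, -0.17 to 0.27, -0.54 to 0.20 and -0.15 to 0.76 for Eip75B, -0.89 to 1.71 and -0.06 to 0.38 for Eip74EF, -1.43 to 0.76 for Hr46, and -0.59 to 0.46, -0.28 to 0.43 and -0.25 to 0.49 for Hr39. For usp they ran from -0.05 to 0.01 in the discs and from -0.14 to 0.25 between tissues. Without the arrays numbered 2, usp gave -0.05, Eip75B 0.18, Hr46 0.30 and Hr39 0.38 and 0.24; recentred arrays gave usp -0.07 between tissues and Hr39 0.00.

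Over all probe sets, the 1181 higher and 1381 lower in the discs became 628 and 483 in the 12-array fit and 449 and 305 in the authors' deposited table, and the 191 and 169 of the hindgut-tubule comparison became 717 and 660, and 485 and 438. Dim probe sets have only a bound, which limits ImpE1 and ImpE2 outside the discs.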
